A study of Mus musculus with 4 samples.

Results

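The immune compartment described here was the set of CD45-coded droplets of 2 mouse liver libraries, one labelled low-AFP and one labelled high-AFP after alpha-fetoprotein, a fetal liver protein used as a marker of liver cancer. A barcode, which stands for 1 droplet and usually 1 cell, passed with 300 genes or more, 500 or more UMIs (unique molecular identifiers, each counting 1 captured RNA molecule) and at most 30% mitochondrial UMIs. It was called immune with at least 1 UMI of Ptprc, which encodes CD45, and with Alb, Apoa1, Apoa2, Apoc3 and Ttr together under 4% of nuclear-encoded UMIs. This gave 4934 immune barcodes of 13836 that passed the cell filters in these 2 libraries, 2002 low-AFP and 2932 high-AFP, while the whole series of 4 libraries held 28199 passing barcodes of 40838 deposited. Lymphoid barcodes held at least 1 UMI of Cd3d, Cd3e, Cd3g or Cd79a (763 low-AFP, 950 high-AFP). Myeloid barcodes held none of these 4 and at least 3 UMIs of Lyz2 (991 and 1536), and 248 and 446 immune barcodes met neither rule.

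The series followed C57BL/6 mice towards liver cancer with 4 libraries: a control, the 2 libraries with an AFP label, and 1 from hepatocellular carcinoma (HCC). The control library is titled as control diet and the HCC library came from the tumour region. The libraries share strain, and the 2 compared here also share the preparation. Livers were digested with collagenase, hepatocytes were cleaned on 30% Percoll, live non-parenchymal cells were sorted, and the fractions were mixed 1:1 and run on a 10x Genomics 3' kit. Age is given as 15 months in sample titles but 17 months among the sample characteristics. The low-AFP library is titled as CD-HFD, whereas the high-AFP library is titled as control diet but carries CD-HFD in the name of its data, so the diet of the high-AFP group is uncertain and groups are named by AFP label alone. The number of mice behind a library is not given in the sources used here. With 1 library a side there was no replicate, and no test, p-value or standard error was computed. Every difference given describes these 2 libraries, and intervals are exact 95% Poisson or binomial intervals that cover counting error only.

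The liver holds resident macrophages, the Kupffer cells, which line the sinusoids and take up bacteria, aged red cells and complement-coated particles from portal blood. When they are lost, blood monocytes enter, pass through inflammatory and lipid-handling states, and can take on the resident programme. T cells, B cells, plasma cells and natural killer cells share the sinusoids with them, and resident CD8 T cells accumulate in steatotic liver.

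Deposited totals were 80505127 UMIs over 9257 barcodes in low-AFP and 97393862 over 11539 in high-AFP. The mitochondrial limit removed 42.0% and 26.5% of barcodes. Afp itself had 104 UMIs in 59 of 5359 passing barcodes in low-AFP (1.75 CPM, that is counts per 1000000 nuclear-encoded UMIs) and 293 UMIs in 124 of 8477 in high-AFP (3.84 CPM). Its share of immune barcodes was 1.30% in each library. Leukocyte genes outside the gate were present: Coro1a, an actin regulator of leukocytes, was detected in 97.0% and 92.4% of lymphoid, 90.6% and 85.0% of myeloid and 4.59% and 4.54% of hepatocyte-gate barcodes (Ptprc at 0, hepatocyte genes at 4% or more) in low-AFP and high-AFP. Of the immune barcodes, 10.5% and 14.2% were admitted by exactly 1 Ptprc UMI. The 2 libraries had 35 barcode sequences in common, and 1 of them was immune in both.

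Lymphoid barcodes made up a smaller part of the immune compartment in high-AFP, and myeloid barcodes a slightly larger one. The lymphoid share was 38.1% (36 to 40.3) in low-AFP and 32.4% (30.7 to 34.1) in high-AFP. The myeloid share was 49.5% (47.3 to 51.7) and 52.4% (50.6 to 54.2). These myeloid intervals overlap, and with each barcode thinned to 1000 UMIs the order turned, at 34.9% and 33.9%. Within the myeloid gate, barcodes with at least 5 UMIs of C1qa, C1qb and C1qc together, the complement subunits that resident and tissue macrophages make, were 62.2% (59.1 to 65.2) in low-AFP and 69.5% (67.2 to 71.8) in high-AFP. They are called C1q-high (616 and 1068 barcodes), and the others, which include monocytes and dendritic cells, C1q-low (375 and 468). Barcodes with a CD3 gene and no Cd79a, the T gate, were 64.1% (60.6 to 67.5) and 68.1% (65.0 to 71.1) of lymphoid barcodes, with overlapping intervals. The live sort, the 1:1 mix and the mitochondrial limit can each set such shares, and their part was not tested. Median depth was lower in high-AFP in each of these gates, at 4313 and 3708 UMIs for lymphoid and 10316 and 8948 for myeloid barcodes.

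**Figure D1:**
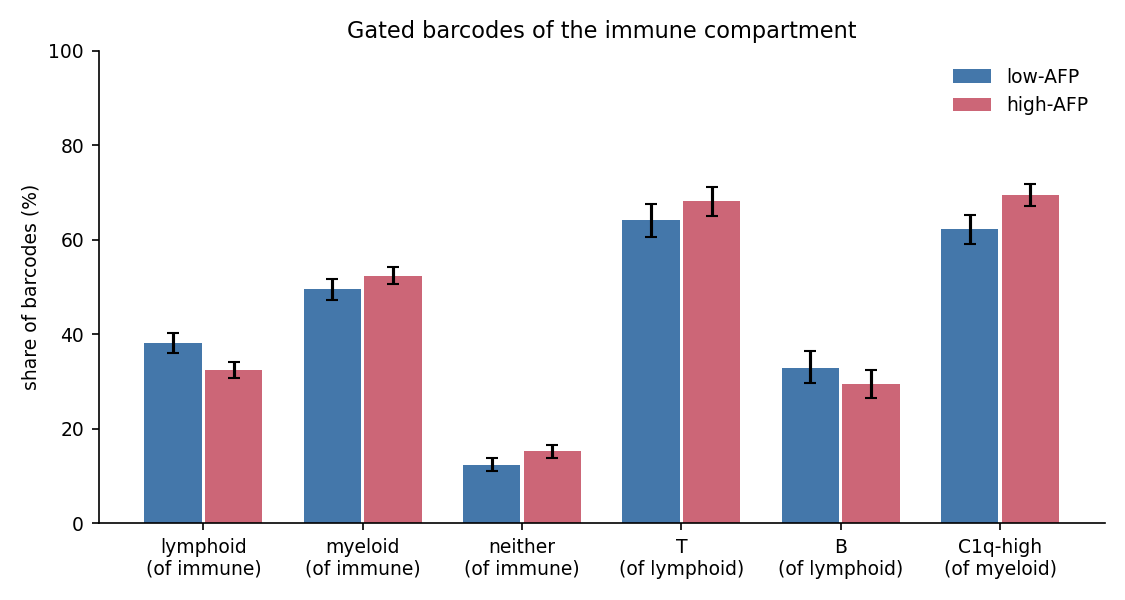
Share of barcodes (%) in each gate of the immune compartment, with the parent gate in brackets; bars are the low-AFP and high-AFP libraries and error bars exact 95% binomial intervals for counting error. The lymphoid share is lower (38.1% against 32.4%) and the C1q-high share of myeloid barcodes higher (62.2% against 69.5%) in high-AFP.

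UMIs were summed over the barcodes of a gate and compared as CPM. The log2 fold was taken after adding 10 CPM to each side, over genes with at least 10 CPM in either library, and a gene counted as higher or lower at 2-fold or more. In myeloid barcodes, 8 of 8351 genes were at least 2-fold higher in high-AFP (0.0958%) and 4 were lower (0.0479%). In lymphoid barcodes, 34 of 8955 were higher (0.380%) and 16 lower (0.179%). The summed profiles were thus close. Of the genes counted, 99.1% of myeloid and 97.3% of lymphoid genes lay within 1.5-fold, and the median log2 fold was -0.03 and -0.00. Many of the genes past 2-fold were genes that hepatocytes express, at under 2 times their hepatocyte-gate level. With genes limited to those at least 2 times their hepatocyte-gate level, 2 higher and 3 lower genes were left in myeloid barcodes (Ccl8 and Hspa1b against Chil3, Rgs5 and Vsig4), and 15 higher and 15 lower in lymphoid barcodes.

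**Figure D2:**
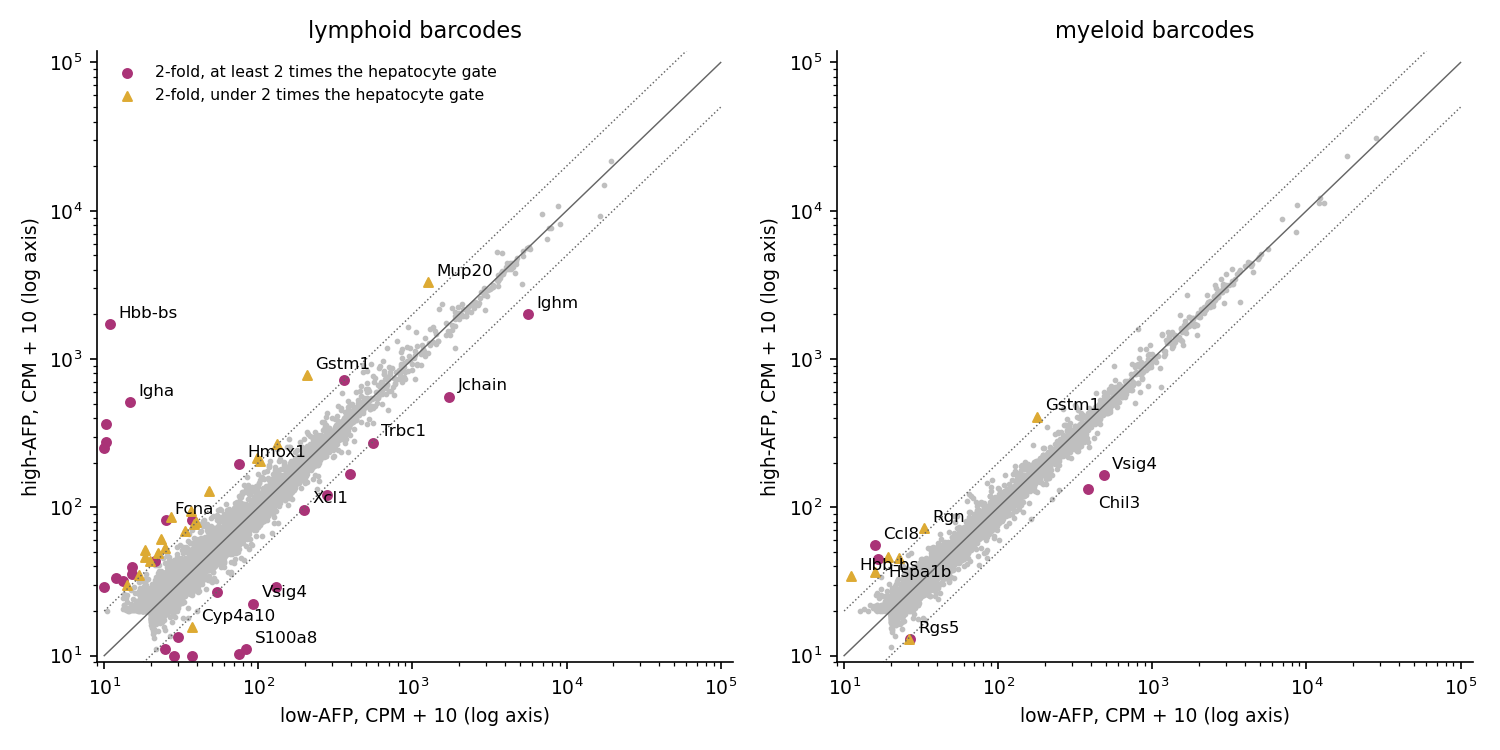
Summed expression (CPM + 10, log axes) in low-AFP (x) and high-AFP (y) of lymphoid and myeloid barcodes; grey points are genes with at least 10 CPM in either library, dotted lines mark a 2-fold difference on this scale, circles and triangles are genes past it at or above 2 times, and under 2 times, their hepatocyte-gate level. In myeloid barcodes Vsig4 and Chil3 lie apart below the diagonal at levels over 100 CPM in both libraries.

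The most reduced myeloid gene in high-AFP was Vsig4, which encodes CRIg, the complement receptor by which Kupffer cells capture C3b-coated bacteria from blood. It had 5142 UMIs in low-AFP and 2260 in high-AFP although high-AFP had more myeloid barcodes, or 476 and 154 CPM, a log2 fold of -1.57 and a ratio of low to high of 3.10 (2.95 to 3.26). Of these UMIs, 5131 and 2259 came from C1q-high barcodes, where the level was 724 and 205 CPM (log2 -1.77). A Vsig4 UMI was found in 263 of 616 C1q-high barcodes in low-AFP, 42.7% (38.8 to 46.7), and in 120 of 1068 in high-AFP, 11.2% (9.40 to 13.3). Thinned to 1000 UMIs per barcode the shares were 32.1% and 7.05%. In the T gate, where the gene should be absent, they were 5.11% and 2.01% before thinning (median depths 4981 and 4215 UMIs) and 3.48% and 0.619% after.

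The difference lay in how many barcodes had Vsig4 and not in how much a positive barcode had. Positive C1q-high barcodes averaged 19.5 UMIs in low-AFP and 18.8 in high-AFP. At least 10 UMIs were found in 29.4% and 7.49% of C1q-high barcodes, and 30 or more in 58 and 25 barcodes, while no UMI was found in 353 and 948. Few barcodes had 1 or 2 UMIs, 31 in low-AFP and 18 in high-AFP. Over the alternatives run, the log2 fold in the myeloid gate stayed between -1.86 and -0.34, and the weakest value was that of C1q-low barcodes alone, where 7 and 1 barcodes had a UMI. By the same gates the control library had Vsig4 in 71.1% (66.1 to 75.8) of 350 C1q-high barcodes and the HCC library in 6.27% (3.97 to 9.34) of 351, at 1534 and 65.2 CPM.

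**Figure D3:**
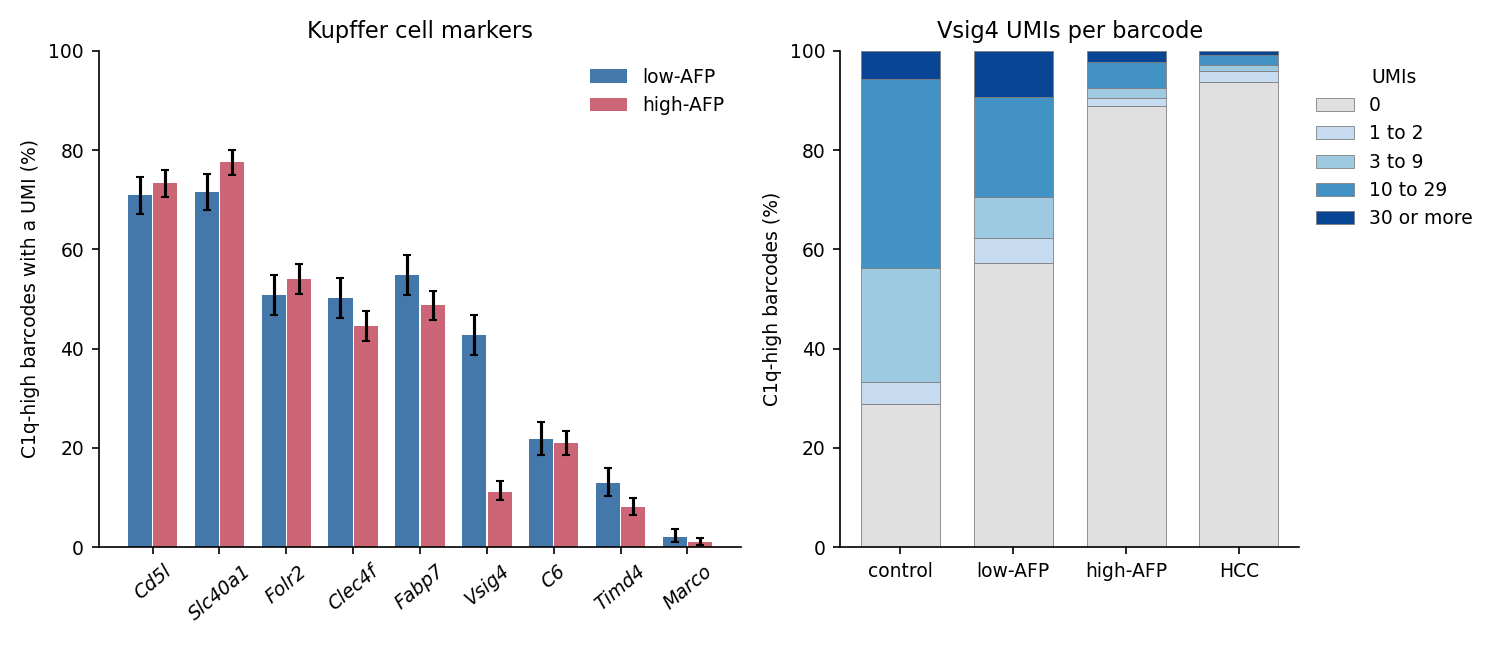
Left, share of C1q-high barcodes with a UMI (%) for 9 Kupffer cell markers in low-AFP and high-AFP, with exact 95% binomial intervals; right, C1q-high barcodes of the 4 libraries (%) by number of Vsig4 UMIs. Vsig4 differs most on the left (42.7% against 11.2%), and on the right the classes of 10 UMIs or more shrink from low-AFP to high-AFP while 0 takes 88.8%.

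The other Kupffer cell markers of the list did not share this size of difference. Clec4f, a galactose-binding lectin confined to Kupffer cells in mice, was at 1410.5 CPM in C1q-high barcodes of low-AFP and 1141 CPM in high-AFP (log2 -0.30), in 50.2% (46.1 to 54.2) and 44.5% (41.5 to 47.5) of them, against 5.11% and 8.81% in the T gate. Timd4, the phosphatidylserine receptor of long-lived Kupffer cells, was at 35.5 and 25.6 CPM (log2 -0.35) in 13% and 8.05%, against 1.02% and 2.47% in the T gate. Cd5l, the secreted macrophage protein AIM, was at 3852 and 4190.0 CPM (log2 0.12) in 70.9% and 73.4%. These values are within 1.5-fold in either direction. Folr2, a folate receptor, was at 354 and 414 CPM, and Fabp7, a fatty acid binding protein, at 401 and 288 CPM. Of the 9 markers measured in C1q-high barcodes, 3 lay above and 6 below a log2 fold of 0, and Vsig4 alone passed 2-fold. Of all genes counted in this gate 65.0% lay below 0, so the count below 0 is near that share. The median of the markers was -0.30 against -0.05 over all genes counted.

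Vsig4 was reduced among barcodes that carried a second Kupffer gene. Of C1q-high barcodes with a Clec4f UMI, 69.6% (64.1 to 74.7) of 309 had Vsig4 in low-AFP and 18.5% (15.1 to 22.3) of 475 in high-AFP, with median depths of 11086 and 11127 UMIs. Of those with a Timd4 UMI, 75.0% (64.1 to 84.0) of 80 and 15.1% (8.30 to 24.5) of 86 had it. The drop in Vsig4 share was thus present inside barcodes with a Clec4f or a Timd4 UMI. Without a Timd4 UMI, 37.9% of C1q-high barcodes in low-AFP and 10.9% in high-AFP had Vsig4. The high-AFP value lies inside the interval of its Timd4-positive barcodes. T-gate barcodes also had Clec4f and Timd4 UMIs, in larger shares in high-AFP, as given above. How many C1q-high barcodes were positive through such background was not tested. For Cd5l-positive barcodes the shares with Vsig4 were 58.4% (53.6 to 63.0) and 15.1% (12.6 to 17.7). Barcodes without Clec4f had Vsig4 in 15.6% and 5.40%. In control, 91.2% (87.0 to 94.4) of 251 Clec4f-positive C1q-high barcodes had it, and in HCC 14.9% (7.40 to 25.7) of 67.

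C1q-high barcodes with and without Vsig4 differed in Clec4f and in Ccr2, in one direction in both libraries. Clec4f was at 2489 CPM with Vsig4 and 651 CPM without in low-AFP, and at 2019 and 1013 CPM in high-AFP. Ccr2, the receptor that brings monocytes into tissue, was at 109 CPM with and 593 CPM without Vsig4 in low-AFP, and in high-AFP at 106 and 351 CPM. Vsig4-positive barcodes were therefore richer in the Kupffer gene and poorer in the monocyte gene. Vsig4-negative barcodes of high-AFP held more Clec4f and less Ccr2 than those of low-AFP.

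The 250 bases before the start of Vsig4 and of 3 other Kupffer markers are shown because these genes differ in fold although they are on one marker list. They are RefSeq promoters of GRCm38.p6, read 5' to 3' on the gene's strand, at chrX:96293439-96293688 (minus strand) for Vsig4, chr6:83656117-83656366 (minus) for Clec4f, chr11:46810549-46810798 (plus) for Timd4 and chr3:87357631-87357880 (plus) for Cd5l. Capitals mark GGAAGT on either strand (ACTTCC on the other), letters that binding sites of PU.1, a transcription factor macrophages depend on, often hold.
Vsig4: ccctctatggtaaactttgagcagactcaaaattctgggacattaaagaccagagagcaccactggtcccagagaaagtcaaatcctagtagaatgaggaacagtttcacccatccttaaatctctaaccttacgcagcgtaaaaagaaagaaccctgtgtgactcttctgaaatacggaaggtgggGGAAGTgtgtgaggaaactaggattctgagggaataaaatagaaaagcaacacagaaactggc
Clec4f: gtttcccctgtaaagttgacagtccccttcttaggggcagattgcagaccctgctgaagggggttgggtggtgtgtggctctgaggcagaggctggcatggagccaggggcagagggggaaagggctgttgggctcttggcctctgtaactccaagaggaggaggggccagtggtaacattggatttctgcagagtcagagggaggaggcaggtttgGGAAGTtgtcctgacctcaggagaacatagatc
Timd4: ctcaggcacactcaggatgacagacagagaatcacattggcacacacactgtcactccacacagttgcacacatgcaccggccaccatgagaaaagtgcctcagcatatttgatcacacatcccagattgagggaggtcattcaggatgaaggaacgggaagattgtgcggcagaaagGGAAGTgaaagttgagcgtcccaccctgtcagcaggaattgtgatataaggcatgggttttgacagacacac
Cd5l: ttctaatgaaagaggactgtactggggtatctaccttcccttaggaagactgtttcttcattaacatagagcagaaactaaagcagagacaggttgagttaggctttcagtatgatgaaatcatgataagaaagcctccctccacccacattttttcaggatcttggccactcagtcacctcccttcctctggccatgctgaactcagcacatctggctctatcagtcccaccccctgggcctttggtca
The match began 63 bases before the start in Vsig4, 33 in Clec4f and 72 in Timd4, and these letters did not occur in the window of Cd5l. They occur in 6485 of 32851 promoter windows of this length, 19.7%, so a match is a description of the sequence and not of binding.

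Chil3, which encodes the chitinase-like protein Ym1 of monocytes and activated macrophages, was the other strongly reduced myeloid gene. It was at 369.6 CPM in low-AFP and 122 CPM in high-AFP (log2 -1.52, ratio of low to high 3.02, 2.86 to 3.20). Unlike Vsig4, it differed in UMIs per positive barcode, while its share before thinning differed little. In C1q-low barcodes it was found in 47.7% (42.6 to 52.9) and 42.7% (38.2 to 47.4), at a mean of 19.6 and 7.46 UMIs in the positive ones, and at 943 and 406 CPM (log2 -1.20). Thinned shares lay further apart, at 32.3% and 19.3%, against 1.02% and 0.619% in the T gate.

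Markers of classical monocytes were lower as a group. All 8 measured in the myeloid gate lay below a log2 fold of 0, with a median of -0.62 against -0.03 over all genes, and Chil3 was the 1 past 2-fold. Ly6c2, the surface protein that marks these monocytes, was at 237 and 120.0 CPM. Fn1, the matrix protein fibronectin, was at 214 and 104 CPM, and F13a1, a coagulation factor subunit, at 91.0 and 50.2 CPM. The C1q-low share was also smaller in high-AFP. Within C1q-low barcodes the same 8 lay below 0 with a median of -0.38, but Ccr2 was at 924 and 912 CPM and Plac8 at 3563 and 3560.2 CPM. Ly6c2 there was at 541 and 372 CPM, in 59.2% (54.0 to 64.2) and 47.9% (43.3 to 52.5) of barcodes, against 24.1% and 20.1% in the T gate. The group median stayed below 0 under each alternative run, from -0.83 to -0.38.

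Genes named by rule in the myeloid gate, the 12 most higher and 12 most lower that passed limits on counts, cells and hepatocyte RNA, are given by function. Higher in high-AFP were 2 enzymes of haem breakdown, Hmox1 (421 and 578 CPM, log2 0.45, but -0.01 in C1q-low barcodes) and Blvrb (309 and 463 CPM, log2 0.57). Fcna, the ficolin that binds microbial sugars, was at 158 and 254 CPM, and Wfdc17, a small secreted protein of macrophages, at 1669 and 2674 CPM (log2 0.68). Fabp5, which carries fatty acids, was at 197 and 338 CPM (log2 0.75), and Vcam1, an adhesion molecule of Kupffer cells, at 319 and 444 CPM. The chemokine Ccl24 was at 67.9 and 96.4 CPM and Ly6a, a surface protein induced by interferon, at 271 and 387 CPM. None of these reached 2-fold. Egfl7 (42.8 and 69.1 CPM) and Gng11 (32.1 and 56.3 CPM), which endothelial cells make, were also named, and endothelial markers summed to 461 and 558 CPM in the myeloid gate. Egfl7 went to a log2 fold of -0.30 without the highest doublet scores. Rsrp1, which encodes a nuclear protein rich in arginine and serine, was at 306 and 481 CPM.

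The lower named genes included several that inflammatory monocytes make. Clec4e, the receptor Mincle for microbial glycolipids, was at 74.3 and 41.5 CPM. Cxcl2, a neutrophil chemokine, was at 134 and 83.4 CPM and S100a4, a calcium-binding protein of migrating cells, at 761 and 492 CPM. Slpi, a protease inhibitor, was at 70.4 and 39.2 CPM, and Ifi205, an interferon-induced DNA sensor, at 63.9 and 37.3 CPM. Xcr1, the receptor that defines type 1 dendritic cells, was at 55.9 and 33.3 CPM (log2 -0.61), in 67 and 85 barcodes, but at 11.3 and 12.1 CPM in C1q-high barcodes. Of 6 markers of these dendritic cells 5 lay below 0 (median -0.26), with Clec9a at -0.00 and Cadm1 at 0.11. Of 4 markers of type 2 dendritic cells 2 did (median -0.04). In C1q-low barcodes the type 2 markers Cd209a (90.7 and 141 CPM), Clec10a (40.1 and 66.1 CPM), Cd7 (12.7 and 20.1 CPM) and Mgl2 (18.3 and 24.2 CPM) were higher. Tnip3 (59.0 and 46.2 CPM) was lower there. Hist1h2ap, a histone gene of dividing cells, was at 73.8 and 39.9 CPM. Stap1, a signalling adaptor, was at 74.3 and 35.7 CPM (log2 -0.88), and was found in 37.8% (34.8 to 40.9) and 22.7% (20.6 to 24.8) of myeloid barcodes. It is not particular to them, since T-gate barcodes had it in 32.3% and 20.9%.

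**Figure D4:**
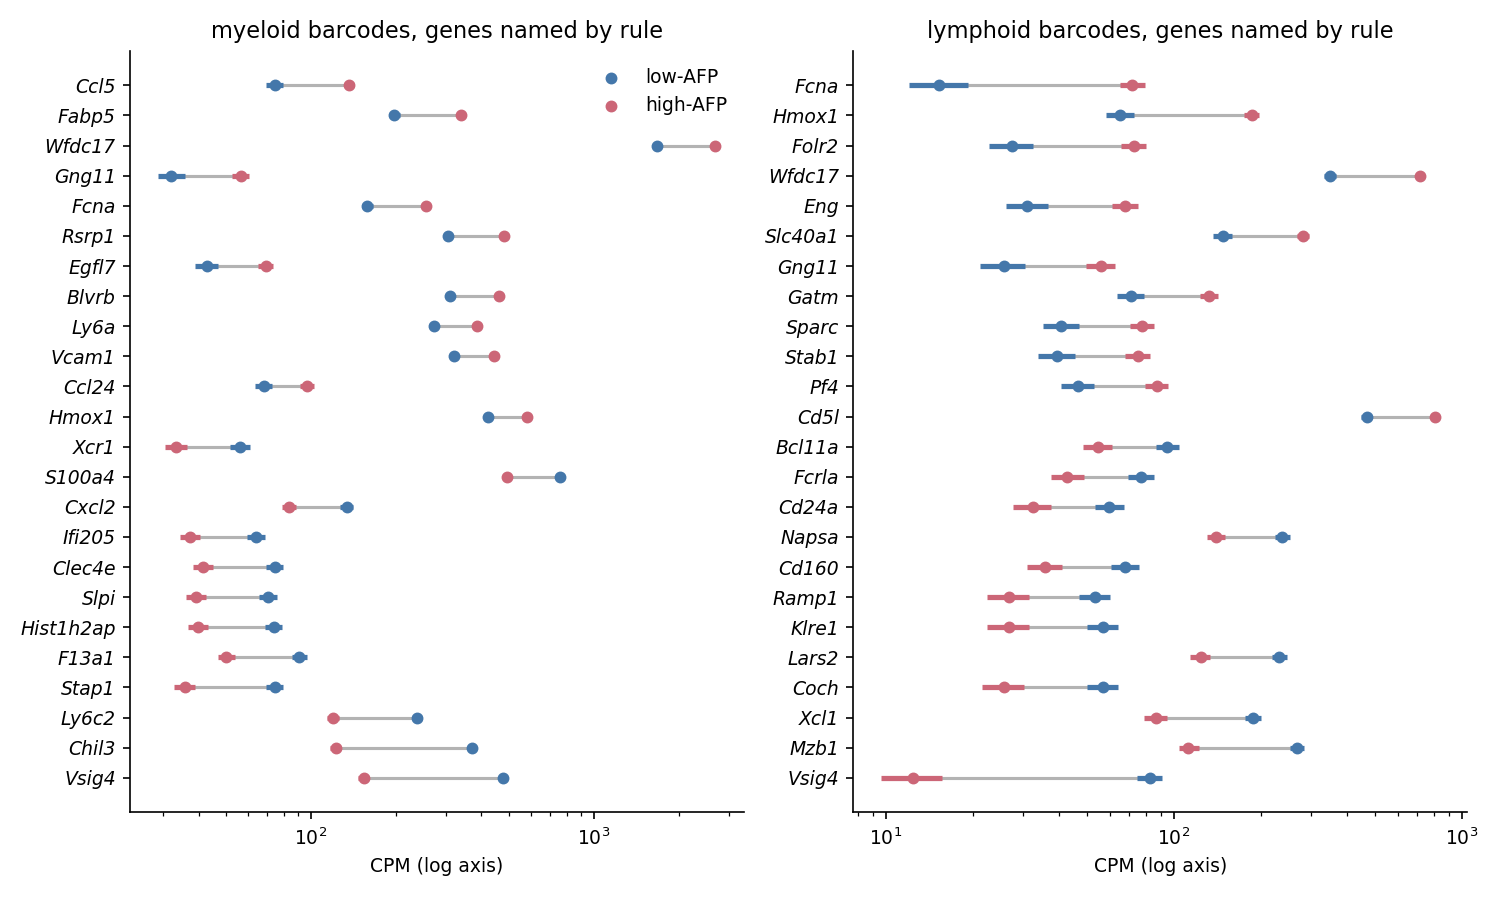
Summed CPM (log axis) in low-AFP and high-AFP of the genes named by rule in myeloid and lymphoid barcodes, ordered by log2 fold; thick bars are exact 95% Poisson intervals for counting error. In myeloid barcodes Vsig4 (476 against 154 CPM) and Chil3 (369.6 against 122 CPM) are the widest pairs.

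Ccl8, a chemokine for monocytes and T cells that a subset of tissue macrophages makes, was the myeloid gene with the largest positive fold. It had 64 UMIs in 20 barcodes of low-AFP and 670 UMIs in 117 of high-AFP, or 5.92 and 45.5 CPM (log2 1.80). In C1q-high barcodes its share was 3.25% (1.99 to 4.97) and 10.9% (9.06 to 12.9), against 0.613% and 1.24% in the T gate. Hspa1b, a heat-induced chaperone, was at 5.08 and 39.7 CPM in C1q-high barcodes. Its near-identical copy Hspa1a was at 15.8 and 37.9 CPM in the wider myeloid gate. Because their sequences are so alike, the split of counts between them is uncertain. Hspa1a (3.36 and 20.5 CPM) and Hspa1b (2.75 and 17.3 CPM) were also higher in the T gate, so this pair differed across lineages. The whole list of heat shock and unfolded protein genes, 17 of them measured in the myeloid gate, had a median of 0.02. That median was below 0 under 2 of 23 settings.

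Split by C1q, the numbers past 2-fold stayed small. C1q-high barcodes had 6 of 8377 genes higher (0.0716%) and 10 lower (0.119%), and C1q-low barcodes 25 of 8117 higher (0.308%) and 7 lower (0.0862%). Among the lower genes of C1q-high barcodes were Fn1 (115 and 36 CPM) and Chil3 (69.0 and 27.7 CPM). The matrix proteases Mmp12 (567 and 322 CPM) and Mmp13 (157 and 86.0 CPM) both had a log2 fold of -0.80 there. Lpl, lipoprotein lipase, was at 1610.1 and 1116 CPM in C1q-high and 169 and 81.0 CPM in C1q-low barcodes, lower in both.

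Of 13 chemokines measured in C1q-low barcodes, 5 lay above and 8 below 0 (median -0.25), with 1 past 2-fold higher and 3 lower. Ccl5, which draws T cells and is made by T, NK and some dendritic cells, was at 39.8 CPM in low-AFP and 275 CPM in high-AFP (log2 2.52), in 27 and 75 barcodes, 7.20% (4.80 to 10.3) and 16.0% (12.8 to 19.7). Over the whole myeloid gate it was at 74.3 and 136 CPM, and in C1q-high barcodes its log2 fold was -0.03. T-gate barcodes had Ccl5 in 79.6% and 86.4%. The CD3 genes are at 0 in C1q-low barcodes because the gate sets them so. Nkg7, a granule gene of cytotoxic lymphocytes, was found in 3 C1q-low barcodes of each library, with 4 and 23 UMIs (1.08 and 6.25 CPM). The part of lymphocyte RNA in the Ccl5 fold was not tested. Ccl2, the main monocyte attractant, was at 101 and 32.9 CPM (log2 -1.37), Ccl3 at 154 and 63.6 CPM and Ccl4 at 284 and 132 CPM. Cxcl10, induced by interferon, was at 383 and 221 CPM in C1q-low but 68.8 and 111 CPM in C1q-high barcodes. These directions were not tested against each other.

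Of 9 markers of lipid-associated macrophages, 7 lay above 0 in C1q-low barcodes (median 0.44, 2 past 2-fold), and Lpl, also a member, was the lowest at a log2 fold of -0.98. Spp1, osteopontin, was at 43.9 and 168 CPM (log2 1.72), found in 15.5% and 19.9% against 16.0% and 14.7% in the T gate, so its share lay near the background while UMIs per positive barcode were 2.81 and 6.63. Fabp5 was at 131 and 349 CPM and Cd63, a lysosomal tetraspanin, at 42.3 and 94.3 CPM. Fabp4, a fatty acid carrier that endothelial cells also make, was at 143 and 303 CPM, and endothelial markers in the same barcodes summed to 401 and 588 CPM. In C1q-high barcodes 6 of the 9 lay above 0 with a median of 0.08. Trem2, the lipid receptor that names this state, was at 379 and 401 CPM in C1q-high and 107 and 89.2 CPM in C1q-low barcodes. Gpnmb, a glycoprotein of the same cells, was at 191 and 236 CPM in C1q-high barcodes.

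Gene lists moved by small amounts in the myeloid gate, most of them with no member past 2-fold. Iron handling had 9 of 10 measured genes above 0 (median 0.32, 0 past 2-fold, 0.17 to 0.35 over the alternatives). Fth1 and Ftl1, the ferritin subunits that store iron, were at 6938 and 8779 CPM and 8726 and 10891 CPM, and Slc40a1, the iron exporter ferroportin, at 723 and 914 CPM. Tfrc, the transferrin receptor, was the member below 0 (log2 -0.11). Oxidative phosphorylation had 22 of 26 above 0 (median 0.09) and glycolysis and hypoxia 16 of 17 below (median -0.18). The NRF2 and redox list had 13 of 15 above (median 0.25, below 0 under 1 of 23 settings), with Gstm1 past 2-fold (169 and 399 CPM, against 1741 and 2556 CPM in the hepatocyte gate).

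Inflammatory and interferon lists lay below 0. Of 17 inflammatory cytokine and NF-kB genes measured, 16 were below (median -0.25, 0 past 2-fold, -0.29 to -0.12 over the alternatives). Il1b, interleukin 1 beta, was at 425 and 309 CPM, Tnf at 27.9 and 17.5 CPM, and Osm, oncostatin M, at 13.7 and 6.80 CPM. Of 31 interferon-stimulated genes, 27 were below (median -0.15, 0 past 2-fold, -0.23 to -0.12). Isg15, a ubiquitin-like protein, was at 213 and 155 CPM, whereas Irf7 was at 297 and 305 CPM. Interferon-gamma-induced genes had 17 of 18 below (median -0.18) and MHC class I genes 10 of 12 (median -0.13). Cell cycle genes had 21 of 22 below in myeloid barcodes (median -0.16) and 15 of 22 above in the T gate (median 0.09). Since 60.4% of all myeloid genes counted lay below 0, a count of members below 0 reads against that share. Immediate early genes, which cell dissociation induces, were below in 17 of 22 (median -0.19), and their part in the inflammatory list was not tested.

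**Figure D5:**
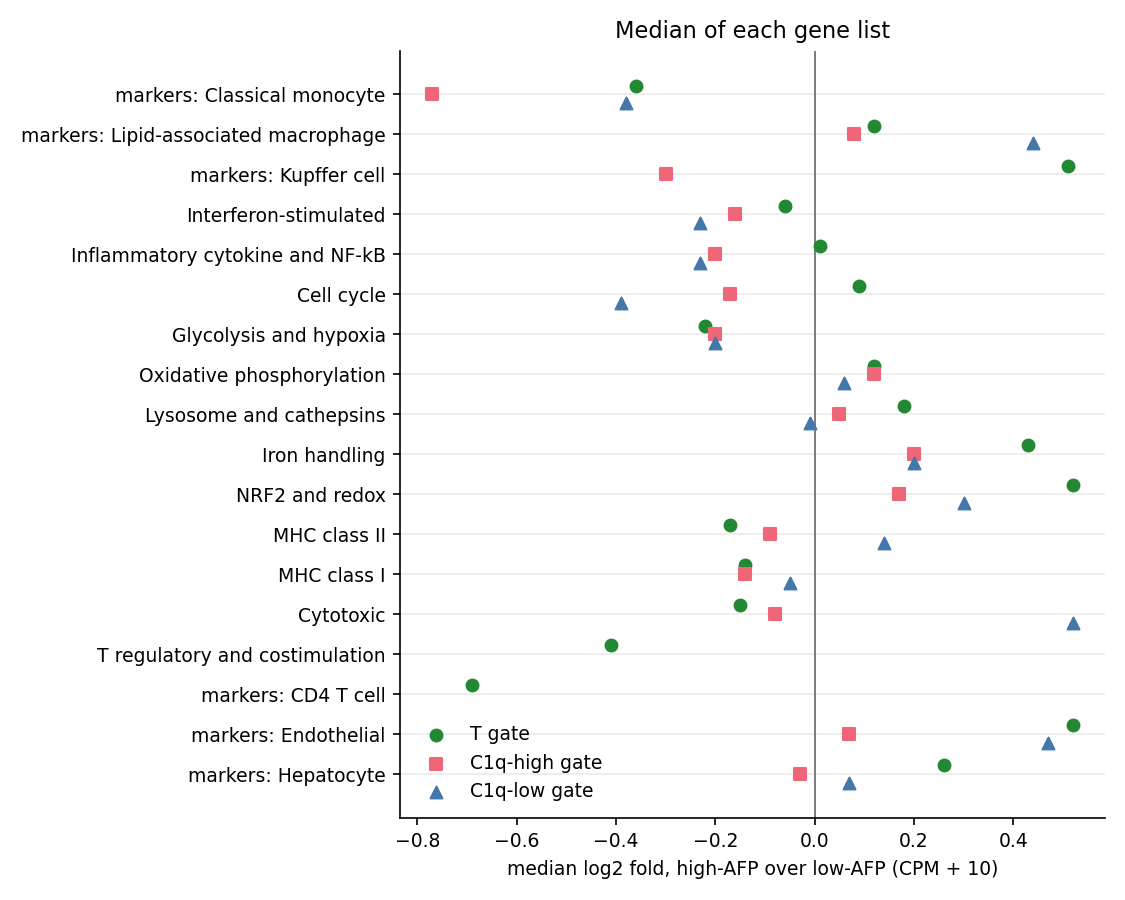
Median log2 fold (high-AFP over low-AFP, CPM + 10) of 18 gene lists in the T, C1q-high and C1q-low gates, where at least 3 members were measured. Classical monocyte markers lie lowest in C1q-high barcodes (-0.77), CD4 T cell markers at -0.69 in the T gate, and the iron and redox lists to the right of 0 in all 3 gates.

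In lymphoid barcodes most genes at least 2-fold higher were not genes of lymphocytes. Of the 34, 15 were at least 2 times their hepatocyte-gate level. Gstm1, a glutathione transferase of hepatocytes, was at 196 CPM in lymphoid barcodes of low-AFP and 768 CPM in high-AFP. In the hepatocyte gate it was at 1741 and 2556 CPM, a ratio of high to low of 1.47 against 3.92 in lymphoid and 2.36 in myeloid barcodes. Mup21, a urinary protein gene whose family members are alike in sequence, had nearly one ratio in the 3 gates, 4.40, 3.90 and 4.57. Cyp4a10, a fatty acid hydroxylase, was lower in the 3 gates, with ratios of 0.182, 0.208 and 0.175. For Cyp4a10 and Mup21 the lymphoid and myeloid ratios were therefore near that of the hepatocytes of the same library, and for Gstm1 and Cyp2a5 (1.82, 4.47 and 3.90) they were larger.

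Single droplets supplied other large folds. Of 9370 UMIs of the globin gene Hbb-bs in high-AFP lymphoid barcodes, 9361 came from 1 barcode, and of 2757 UMIs of Igha, the IgA heavy chain, 2742 came from 1. Without its top barcode, Igha turned from higher to a log2 fold of -0.05. The calprotectin gene S100a8, of neutrophils, had 350 UMIs in 7 barcodes of low-AFP, 180 of them in 1, and 6 UMIs in 4 of high-AFP. With each gene recounted without its top barcode, 21 higher and 11 lower lymphoid genes were past 2-fold.

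Macrophage and endothelial transcripts were most of the lymphoid genes named by rule as higher. Fcna was at 15.3 and 71.7 CPM (log2 1.69), Hmox1 at 65.2 and 187 CPM, Folr2 at 27.3 and 72.5 CPM, Wfdc17 at 349 and 715 CPM and Cd5l at 467 and 809.6 CPM. The endothelial genes Stab1, a scavenger receptor, and Eng, a TGF-beta co-receptor, were at 39.2 and 74.8 CPM and 31.0 and 67.5 CPM. These are not genes that lymphocytes are known for. Beside them, Lyz2 was detected in 24.5% (21.5 to 27.7) and 28.0% (25.2 to 31.0) of lymphoid barcodes and C1qa in 13.4% (11 to 16.0) and 20.2% (17.7 to 22.9). Kupffer markers in lymphoid barcodes summed to 898 and 1459 CPM and endothelial markers to 354 and 526 CPM. The part that shared droplets and free RNA play in these folds was not tested. With droplets of mixed lineage removed, 72 genes were higher and 17 lower, of which 20 and 6 were among the 34 and 16. Vsig4, the most reduced named gene of lymphoid barcodes (82.4 and 12.4 CPM), then had a log2 fold of 0.01.

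The T gate held 489 and 647 barcodes, with 37 of 9040 genes higher (0.409%) and 11 lower (0.122%). Helper and regulatory genes lay below 0 as groups. Pan-leukocyte genes, which include the gate gene Ptprc, did so too, by less. Of these, 6 of 7 lay below 0 with a median of -0.24 (-0.12 in the myeloid gate), against 51.0% of all T-gate genes counted. Endothelial markers were above 0 in 7 of 7 with a median of 0.52. Cd4 was at 49.2 CPM in low-AFP and 23.9 CPM in high-AFP (log2 -0.80), in 17.2% (13.9 to 20.8) and 10.0% (7.84 to 12.6) of T-gate barcodes, against 0.487% and 0.468% in C1q-high barcodes. Thinned shares were 6.76% and 2.79%. Cd8a was in 53.6% (49.0 to 58.1) and 57.5% (53.6 to 61.3), at 312 and 267 CPM. Most T-gate barcodes with a coreceptor UMI were therefore of the CD8 kind in both libraries. The 4 CD4 markers measured all lay below 0 (median -0.69).

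Genes of T regulatory cells and costimulation were below 0 in 11 of 11 measured (median -0.41 against -0.00 over all genes, 0 past 2-fold), and the lymphoid median stayed below 0 under each alternative, from -0.42 to -0.10. Tnfrsf4, the costimulatory receptor OX40, was at 114 and 66.8 CPM. Icos, which is also among the CD4 markers, was at 83.4 and 52.9 CPM. Ikzf2, the factor Helios, was at 256 and 176 CPM, and Ctla4, which restrains costimulation, at 75.5 and 53.2 CPM. Tnfsf8, the CD30 ligand, is a CD4 marker outside this list and was at 54.4 and 26.8 CPM. Foxp3, the master factor of regulatory T cells, had 52 UMIs in 26 barcodes and 39 UMIs in 25, or 15.9 and 9.51 CPM. At that depth its shares, 5.32% (3.50 to 7.69) and 3.86% (2.52 to 5.65), could not be told apart.

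Cytotoxic genes showed no single direction in the T gate, with 13 of 18 below 0 (median -0.15), and the median over all lymphoid barcodes was above 0 under 4 of 21 settings. Gzmb, the effector granzyme, was at 526 and 365 CPM (log2 -0.51), in 45.8% and 45.4% of barcodes. Gzmk, the granzyme of memory-like CD8 cells, was at 191 and 239 CPM, and Eomes, a factor of the same cells, at 71.5 and 90.7 CPM, while Tbx21, the effector factor T-bet, was at 29.3 and 16.3 CPM. Thinned Gzmk shares were 16.2% and 23.1%. Ccl5 was at 12210.3 and 13535 CPM. Of 15 checkpoint genes, 11 lay below 0 (median -0.16, with the lymphoid median above 0 under 6 of 21 settings), with Lag3 at 148 and 106 CPM and Pdcd1, which encodes PD-1, at 88.0 and 77.8 CPM. Cxcr6, the receptor of liver-resident T cells, was at 307 and 200.2 CPM (log2 -0.59).

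Of 6 NK cell markers measured in lymphoid barcodes, 4 lay below 0 and 2 above (median -0.27, 0 past 2-fold, above 0 under 1 of 21 settings). Among the genes named by rule, Xcl1, the ligand of Xcr1, was at 188 and 86.5 CPM over all lymphoid barcodes (log2 -1.04), and in 24.3% (20.6 to 28.4) and 19.0% (16.1 to 22.3) of T-gate barcodes. Klre1, an NK receptor, was at 56.6 and 26.7 CPM, and Cd160, a receptor of NK and CD8 cells, at 67.7 and 35.6 CPM. The lymphoid gate needs a CD3 gene or Cd79a, so NK cells without them fall outside it. In immune barcodes that were neither lymphoid nor myeloid, Klre1 was at 119.7 and 128 CPM. Each other NK marker measured there was lower in high-AFP, with Ncr1 at 208 and 135 CPM, Klrb1c at 99.7 and 89.9 CPM and Klrk1 at 267 and 245 CPM. Coch, better known as cochlin of the inner ear, was at 56.6 and 25.6 CPM, and was found in 17.0% (13.8 to 20.6) and 11.7% (9.37 to 14.5) of T-gate barcodes and in none of the C1q-high barcodes of either library. Control lymphoid barcodes had 0.244 CPM of Coch and HCC 26.8 CPM. Ramp1, a receptor for the neuropeptide CGRP with its partner, was at 53.2 and 26.7 CPM in lymphoid barcodes (log2 0.01 in the B gate), but was in 19.0% and 16.3% of C1q-high barcodes too. Trbc1, a T cell receptor constant gene, was found in 69.9% (65.7 to 74.0) and 47.9% (44.0 to 51.8) of T-gate barcodes, and Trbc2 in 91.8% and 90.7%, and since these copies are nearly identical the split of reads between them is uncertain. Lars2, a mitochondrial tRNA ligase gene, was at 232 and 124 CPM in lymphoid barcodes and at 65.9 and 41.1 CPM in the hepatocyte gate.

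Most plasma cell genes measured were lower over all lymphoid barcodes, with Jchain and Derl3 from few droplets. Jchain, the joining chain of secreted antibody, was at 1718 and 548 CPM in lymphoid barcodes, from 13 and 5 barcodes. At least 10 UMIs of it were in 10 of 763 barcodes, 1.31% (0.630 to 2.40), and 4 of 950, 0.421% (0.115 to 1.07), so the intervals overlap. Mzb1, an endoplasmic reticulum chaperone of antibody-making cells, was at 268 and 112 CPM, and Derl3, of the same organelle, at 20.3 and 3.29 CPM. Of 5 plasma markers measured, 3 were past 2-fold lower (median -1.18, at 0.04 in the T gate alone, the only alternative of those run with a median above 0). The rest were Sdc1 (22.2 and 16.4 CPM) and Prdm1, which was higher in high-AFP (37.3 and 44.2 CPM, log2 0.20). Without each gene's top barcode, Jchain was past 2-fold lower and Mzb1 and Derl3 were not, and in the B gate Derl3 alone of these 3 was. Ighm, the IgM heavy chain, was at 11376 and 6604 CPM in barcodes with Cd79a and no CD3 gene, the B gate, in 98.8% and 96.8% of 251 and 280 barcodes. Immunoglobulin genes share sequence, so counts of one can hold reads of another.

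The B gate had 154 of 8792 genes higher (1.75%) and 40 lower (0.455%), the largest counts of the 6 gates compared, with the fewest UMIs behind them. Kupffer markers there summed to 97.6 and 1159 CPM, Lyz2 was in 14.3% (10.3 to 19.3) and 19.6% (15.2 to 24.8) of its barcodes and C1qa in 6.77% (3.99 to 10.6) and 11.8% (8.25 to 16.2). The 8 B cell markers lay below 0 in lymphoid barcodes (median -0.40, above 0 under 1 of 21 settings), with Ms4a1, which encodes CD20, at 892 and 644 CPM in the B gate, in 91.6% (87.5 to 94.7) and 85.0% (80.3 to 89.0). Fcrla, an Fc receptor-like protein of B cells, was at 76.7 and 42.7 CPM in lymphoid barcodes (log2 0.03 in the T gate), Napsa, an aspartic protease, at 238 and 139.8 CPM, Cd24a, a surface glycoprotein of B cells, at 59.7 and 32.3 CPM, and Bcl11a, a B cell transcription factor, at 95 and 54.4 CPM. The thinned share of Ms4a1 was 55.8% and 55.2%. Macrophage transcripts entered the denominator of these CPM values, and their part in the lower B cell levels was not tested.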

How the data were processed

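Droplet single-cell RNA of mouse liver was analysed in 2 libraries, with 2 others for reference. The authors deposited whole-number UMI counts per gene and barcode, made with Cell Ranger 3.0.2 per the file headers. The submitters' processing notes also name R 3.0, Seurat 3 and the mm9 genome, and the annotation behind the counts is not given in the sources used here.

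The cell filters and gates are those given in the report. Counts were summed per library and gate and scaled to 1000000 nuclear-encoded UMIs, with 10 CPM added before log2. Python 3.11.15, numpy 2.4.6, scipy 1.17.1 and pandas 2.3.3 were used, and the fold and interval code was tested on simulated data. Scrublet, through scanpy 1.11.5, marked 8 and 4 barcodes at its automatic threshold, which means that it did not work, so doublets were kept and droplets of mixed lineage were removed in an alternative.

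Named genes were the 12 largest folds each way per compartment with at least 50 CPM, 50 UMIs and 10 barcodes in the higher library, at most 25% of UMIs from 1 barcode, and at least 2 times the hepatocyte-gate level. Mitochondrial, ribosomal, globin, antigen receptor and gate genes were left out, as were Xist, Y-linked genes and model genes with Gm, Rik or AC-type names. Other genes were named from the lists or after their values were seen. Members and lists were chosen with earlier results of these data known. A count of 3 UMIs, the limit that 0 allows, was 0.629 and 0.548 CPM in lymphoid and 0.278 and 0.204 CPM in myeloid barcodes.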

Additional observations from a re-analysis of the deposited data

Results flagged for a closer look

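The acute phase gene Saa3 differed in opposite directions between the C1q-high gate and the C1q-low gate, a mix that includes monocytes and dendritic cells. Its log2 fold was -2.90 in C1q-high barcodes (low-AFP 169 CPM, high-AFP 14.0 CPM) and 0.97 in C1q-low barcodes (125 and 254 CPM). Of its 1201 UMIs in C1q-high barcodes of low-AFP, 974 (81.1%) came from 1 barcode. Cers6, a ceramide synthase gene, had a log2 fold of -0.56 in the T gate (36.4 and 21.5 CPM) and 1.18 in the B gate (8.56 and 32 CPM). Both were marked because the single libraries moved in opposite ways in 2 gates, and with 1 library a side neither difference was tested.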

How the results depend on the processing

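No paired analysis was possible because each group was 1 library. Counts of genes past 2-fold moved with the settings, given here as lymphoid higher and lower and then myeloid higher and lower, from 34, 16, 8 and 4. A pseudocount of 1 CPM gave 101, 35, 21 and 17, and 50 CPM gave 8, 7, 1 and 2. A minimum of 50 CPM gave 21, 10, 2 and 2, and thinning to 1000 UMIs 71, 31, 18 and 12. Without droplets of mixed lineage 72 lymphoid genes were higher, and by the mean of per-cell CPM 7 were lower. The B gate alone gave 154 and 40, the C1q-low gate 25 and 7, and the C1q-high gate 10 lower. Of the alternatives chosen after seeing the data, leaving out each gene's top barcode gave 21 lymphoid higher, and genes at least 2 times the hepatocyte gate gave 15 lymphoid and 2 myeloid higher.

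Shares are given for low-AFP and then high-AFP. The myeloid share was 55.0% and 60.0% with hepatocyte genes under 1%, 52.3% and 55.7% with at least 2 Ptprc UMIs, 52.3% and 55.9% without mixed droplets, and 34.9% and 33.9% thinned. The lymphoid share was 33.7% and 25.8% with hepatocyte genes under 1%, 34.4% and 27.7% without mixed droplets, and 35.9% in low-AFP thinned. The T share was 69.4% and 76.1% with hepatocyte genes under 1%, 69.8% and 73.2% with at least 2 Ptprc UMIs, and 68.2% in low-AFP thinned. The C1q-high share was 42.8% and 50.5% thinned.

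Of the single-gene values under alternatives, 1359 moved by less than their error and 690 by more, and 12 values of genes past 2-fold changed sign. In lymphoid barcodes Igha went to -0.32 with at least 2 Ptprc UMIs, -0.04 without mixed droplets, -0.18 without the 1% of barcodes with the most UMIs and -0.05 without its top barcode. Igfbp5 went to -0.13 without mixed droplets and -0.92 in the B gate, Vsig4 to 0.01 without mixed droplets, Derl3 to 0.01 in the T gate, Iglv1 to 0.21 in the B gate, Dcn to -0.02 without its top barcode, and Rspo3 to -0.45 without the highest Scrublet scores. In myeloid barcodes Rgs5 went to 0.04 in the C1q-low gate. Among named genes under 2-fold, signs also changed for Fcrla (0.03, T gate), Ramp1 (0.01, B gate), Xcr1 (0.06) and Ccl5 (-0.03) in the C1q-high gate, Hmox1 (-0.01, C1q-low gate) and Egfl7 (-0.30, without the highest Scrublet scores). The cause was not tested. Lower depth in high-AFP limits shares of barcodes with a UMI, and 1 library a side limits every comparison to these libraries.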
